A study of Mus musculus with 6 samples.

Results

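The IFIT genes of the mouse, named for interferon-induced proteins with tetratricopeptide repeats, were described across RNA-seq libraries of CD8+ T cells. All rows of the expression table with the symbols Ifit1, Ifit1bl1, Ifit1bl2, Ifit2, Ifit3 and Ifit3b were taken, which gave 6 of 18122 rows. The libraries fell into 4 groups: Dusp2-/- CD44hi (2 libraries), WT CD44hi (2 libraries), Dusp2-/- CD44lo (1 library) and WT CD44lo (1 library). Dusp2 encodes a nuclear phosphatase that removes phosphate from MAP kinases, and CD44 is an adhesion receptor that marks activated and memory-like T cells. In every group, lymph node CD8+ T cells had been kept for 18 h on plate-bound anti-CD3 (1 µg/mL) with IL-4 (20 ng/mL), IFN-α (50 ng/mL) and soluble anti-CD28 (1 µg/mL), a mixture that gives virtual memory T cells in culture. They had then been sorted on CD44, where CD44hi stands for the super-high gate and CD44lo for the low gate. No library without IFN-α was analysed here, so the induction of IFIT genes by interferon itself was not measured. The genotype was taken from the titles. The treatment text of the labels names Cd4-Cre Rpa1fl/fl mice in place of Dusp2-/- mice. The labels give no age, sex or strain, no extent of the Dusp2 deletion and no word on whether paired libraries came from separate animals, so p-values measure the spread between these libraries, which may be technical.

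IFIT proteins are made at low levels in resting cells and are among the most strongly induced products of type I interferon. The interferon receptor activates the kinases JAK1 and TYK2, and a complex that includes STAT2 and IRF9 then binds interferon-stimulated response elements (ISREs) in the promoters of its target genes, IFIT genes included. Ifit1 binds the 5′ end of RNA whose cap lacks ribose methylation, as on some viral RNAs, and blocks its translation. Ifit2 limits some neurotropic viruses in mice, and in human cells IFIT3 binds and stabilises IFIT1. Ifit1bl1 and Ifit1bl2 are Ifit1-like genes, and Ifit3b is a near copy of Ifit3.

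The promoters are shown because the ISRE is the element through which interferon acts on the family. All 6 members matched the RefSeq promoter table (assembly GRCm38.p6), with 9 start sites among them, and all lie in 1 cluster on chromosome 19. The letters GAAA, any 2 bases and GAAA again, 1 form of the ISRE core, were searched on both strands from 250 bases before to 50 bases after each start site. They were present at 5 of the 6 member genes, against 3.99% of 27025 genes in the table. These 5 genes do not give 5 separate sequences, as described after the windows. The windows below give the 250 bases before 1 start site of each of 5 genes, 5′ to 3′ on the gene's own strand, with matches to the ISRE letters in capitals. All capitals here read TTTC, 2 bases and TTTC, the reverse complement of the letters searched. The positions are chr19:34640639-34640888 (plus strand) for Ifit1, chr19:34583279-34583528 (plus strand) for Ifit3, chr19:34607707-34607956 (plus strand) for Ifit3b, chr19:34601969-34602218 (minus strand) for Ifit1bl1 and chr19:34550838-34551087 (plus strand) for Ifit2.
Ifit1: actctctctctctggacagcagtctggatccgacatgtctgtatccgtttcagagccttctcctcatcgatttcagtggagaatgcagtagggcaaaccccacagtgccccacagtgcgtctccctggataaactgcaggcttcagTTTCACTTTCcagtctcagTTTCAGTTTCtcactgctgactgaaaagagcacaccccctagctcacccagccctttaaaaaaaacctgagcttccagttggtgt
Ifit3: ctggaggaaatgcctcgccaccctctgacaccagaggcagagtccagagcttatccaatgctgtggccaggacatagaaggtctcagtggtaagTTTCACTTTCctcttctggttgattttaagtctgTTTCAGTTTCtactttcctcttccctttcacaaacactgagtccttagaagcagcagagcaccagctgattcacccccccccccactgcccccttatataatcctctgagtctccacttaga
Ifit3b: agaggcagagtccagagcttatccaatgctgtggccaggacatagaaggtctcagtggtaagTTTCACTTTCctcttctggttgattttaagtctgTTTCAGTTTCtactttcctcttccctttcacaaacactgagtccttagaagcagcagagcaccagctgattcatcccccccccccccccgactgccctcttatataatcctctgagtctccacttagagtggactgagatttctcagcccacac
Ifit1bl1: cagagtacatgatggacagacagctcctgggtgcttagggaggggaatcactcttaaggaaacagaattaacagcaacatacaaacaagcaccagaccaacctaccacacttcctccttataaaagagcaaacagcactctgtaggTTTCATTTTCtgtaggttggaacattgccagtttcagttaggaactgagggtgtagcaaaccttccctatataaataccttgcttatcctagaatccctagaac
Ifit2: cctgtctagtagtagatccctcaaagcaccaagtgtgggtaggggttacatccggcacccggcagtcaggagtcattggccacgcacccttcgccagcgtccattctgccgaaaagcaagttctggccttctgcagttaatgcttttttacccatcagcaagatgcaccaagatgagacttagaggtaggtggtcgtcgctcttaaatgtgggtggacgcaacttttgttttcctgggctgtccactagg

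Ifit1, Ifit3 and Ifit3b each held a pair of matches, at 104 to 95 and 85 to 76 bases before the start in Ifit1, at 156 to 147 and 122 to 113 bases in Ifit3, and at 188 to 179 and 154 to 145 bases in Ifit3b. The letters of the first match (TTTCACTTTC) and of the second (TTTCAGTTTC) were the same in all of these genes. The Ifit3 and Ifit3b windows were themselves identical at 99.2% of 260 aligned bases, so their matches are not separate sequences. Ifit1bl1 held 1 match (TTTCATTTTC) in each of its windows. An Ifit1bl2 window lay on the opposite strand of the Ifit1 window and shared 245 bases with it, so its matches were those of Ifit1. Neither Ifit2 window held the letters, which says only that this form is not in those windows. The letters of a gamma-activated site (TTCNNNGAA) were found at 1 member gene, Ifit2, against 9.55% of all genes. Those of a STAT6 site (TTC, any 4 bases and GAA), the form bound after IL-4, were also found at Ifit2 alone among the members, against 8.01% of all genes. A match is a description of these letters, and no binding was measured.

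Ifit3 and Ifit3b could share reads. Their GENCODE vM21 transcripts (1745 and 2000 bases) were identical at 98.0% of 1697 aligned bases, and 51.2% of the 50-base stretches of the Ifit3 transcript and 44.5% of those of the Ifit3b transcript were present in the other. Of 150-base stretches, 18.5% of Ifit3's and 16.0% of Ifit3b's were shared. Between Ifit1 and Ifit1bl2, 7.06% of the Ifit1 50-base stretches were shared. How reads that fit both copies were assigned is not stated in the labels, so the split between Ifit3 and Ifit3b is uncertain, and their sum was tested beside them. Strand use in counting is not stated either, so reads of members that overlap on opposite strands cannot be told apart.

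Expression is given in FPKM, reads scaled to the gene's length and to the library's mapped reads, so levels of different genes can be compared. The values were whole multiples of 1 read's worth in all 16220 rows with a value above 0 in at least 2 libraries, which gave total reads of 52077365 to 55782810 in Dusp2-/- CD44hi, 42816073 to 55830235 in WT CD44hi, 23490008 in Dusp2-/- CD44lo and 50084878 in WT CD44lo. Dusp2 checked the genotype labels, with 0 and 0.0283 FPKM in Dusp2-/- CD44hi against 82.6 and 83.9 FPKM in WT CD44hi, and with 0 FPKM in Dusp2-/- CD44lo against 116 FPKM in WT CD44lo. Cd44 checked the sort, with 65.3 to 79.9 FPKM over the CD44hi libraries against 1.33 and 1.43 FPKM in the CD44lo libraries. Cd8a was at 246 to 358 FPKM in every library and Cd4 at no more than 0.0228 FPKM. Summed over their lists, CD8 T cell markers (4 of 5 in the table) were at 808 to 1197 FPKM and CD4 T cell markers (3 of 3) at 0.220 to 0.589 FPKM. Within the CD8 T cell list, Cd3e was at 51.7 and 53.5 FPKM in Dusp2-/- CD44hi against 88.6 and 76.9 FPKM in WT CD44hi (log2 difference -0.64, adjusted p 0.0043, limma), and Cd3d was also lower in Dusp2-/- CD44hi (-0.40, adjusted p 0.014, limma). The summed marker level of natural killer cells (1 of 2 markers in the table) was at most 0.0466 FPKM and that of myeloid cells (3 of 5) at most 0.212 FPKM. Summed B cell markers (2 of 4 in the table, mostly Cd79b) were at 22.4 to 24.7 FPKM in Dusp2-/- CD44hi, 10.1 to 12.6 FPKM in WT CD44hi, and at 11.4 FPKM in Dusp2-/- CD44lo and 7.20 FPKM in WT CD44lo. Summed dendritic markers (2 of 3, mostly Zbtb46) were at 1.83 to 1.87 FPKM in Dusp2-/- CD44hi against 0.619 to 0.653 FPKM in WT CD44hi, and at 0.665 FPKM in Dusp2-/- CD44lo against 0.145 FPKM in WT CD44lo. Summed stromal markers (4 of 4, mostly Pecam1) were at 5.26 to 5.55 FPKM in Dusp2-/- CD44hi, 7.23 to 8.67 FPKM in WT CD44hi, and at 9.96 FPKM in Dusp2-/- CD44lo and 14.5 FPKM in WT CD44lo. Cd79a was at 0.0727 and 0.182 FPKM in Dusp2-/- CD44hi against 0.379 and 0.194 FPKM in WT CD44hi, the reverse of Cd79b. Flt3 was at no more than 0.00612 FPKM, and Col1a1, Col1a2 and Pdgfrb at no more than 0.114 FPKM. The B cell, dendritic and stromal sums thus each rest mostly on 1 gene. Whether cells other than CD8 T cells were present, and their part in the results below, was not tested.

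Ifit3, whose human counterpart binds IFIT1, was the most abundant member in all 6 libraries. It was at 20.1 and 19.8 FPKM in Dusp2-/- CD44hi and at 28.5 and 31.8 FPKM in WT CD44hi. It was at 159.8 FPKM in Dusp2-/- CD44lo and at 196 FPKM in WT CD44lo. The 4 CD44hi libraries all lay far below the CD44lo libraries, and within CD44hi the Dusp2-/- libraries lay below the WT libraries without overlap.

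Ifit1, which binds RNA whose cap lacks ribose methylation, ranked second in every library. Dusp2-/- CD44hi had 17.2 and 16.9 FPKM against 21.2 and 22.3 FPKM in WT CD44hi. Dusp2-/- CD44lo had 71.4 FPKM against 89.7 FPKM in WT CD44lo. The order of the groups was that of Ifit3, with narrower gaps between fractions.

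Ifit2 was at 10.1 and 10.6 FPKM in Dusp2-/- CD44hi and 12.9 and 11.7 FPKM in WT CD44hi, and at 35.1 FPKM in Dusp2-/- CD44lo and 50.7 FPKM in WT CD44lo. The Ifit1-like gene Ifit1bl1 was at 4.96 and 4.64 FPKM in Dusp2-/- CD44hi and 5.26 and 7.14 FPKM in WT CD44hi, and at 58.1 FPKM in Dusp2-/- CD44lo and 67.9 FPKM in WT CD44lo. Ifit2 stood above Ifit1bl1 in all 4 CD44hi libraries, and Ifit1bl1 stood above Ifit2 in both CD44lo libraries.

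Ifit3b was at 2.68 and 3.03 FPKM in Dusp2-/- CD44hi and 3.07 and 3.56 FPKM in WT CD44hi, and at 27.6 FPKM in Dusp2-/- CD44lo and 31.3 FPKM in WT CD44lo. Ifit1bl2 was barely detected, with 0.0472 and 0.0505 FPKM in Dusp2-/- CD44hi (9 and 9 reads), 0.239 and 0.152 FPKM in WT CD44hi (35 and 29 reads), 0.261 FPKM in Dusp2-/- CD44lo (21 reads) and 0.496 FPKM in WT CD44lo (85 reads). The other 5 members had between 267 and 17417 reads in every library. For all 6 members the groups stood in 1 order of means, with Dusp2-/- CD44hi lowest, then WT CD44hi, then Dusp2-/- CD44lo, and WT CD44lo highest. How many other genes stood in this order was not counted.

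**Figure D1:**
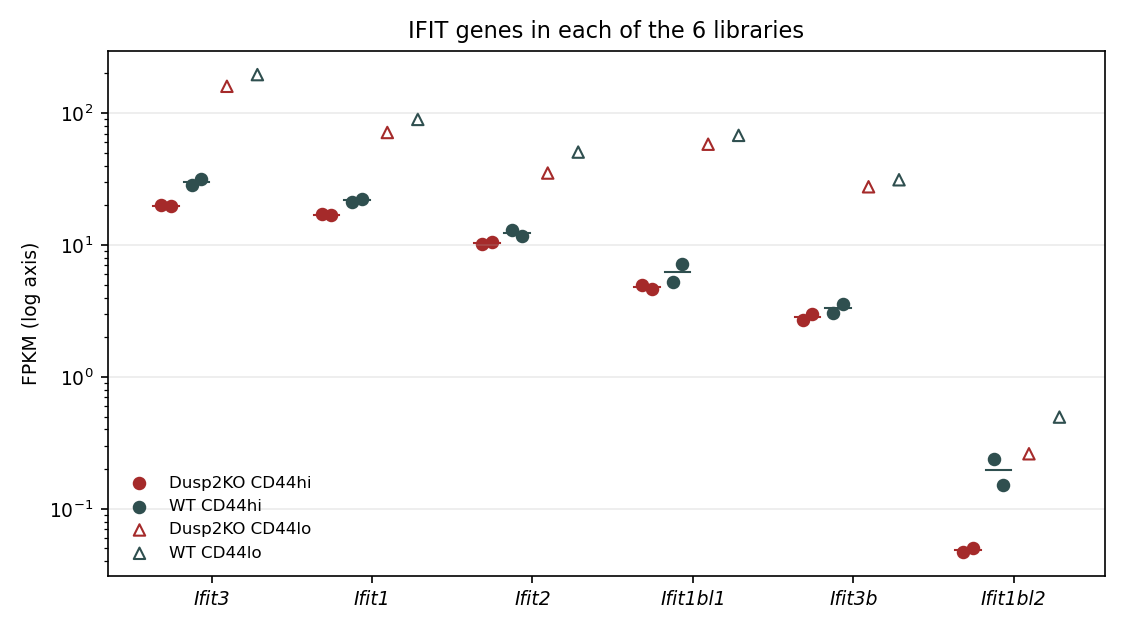
FPKM of the 6 IFIT genes in each of the 6 libraries, on a log scale, with 1 point per library and the mean of each CD44hi pair as a bar. Ifit3 had 19.8 to 31.8 FPKM in the 4 CD44hi libraries against 159.8 and 196 FPKM in the CD44lo libraries, and Ifit1bl2 stayed below 1 FPKM throughout.

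Summed over the family, expression stood at 55.1 and 55.0 FPKM in Dusp2-/- CD44hi, 71.2 and 76.7 FPKM in WT CD44hi, and at 352 FPKM in Dusp2-/- CD44lo and 436 FPKM in WT CD44lo. In bulk libraries, fewer cells that express a gene and less of its RNA per cell cannot be told apart.

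The fraction step, CD44hi against CD44lo, was the larger of the steps for the 5 members tested. Of the 6 members, 5 passed the filter of a mean of at least 1 FPKM (Ifit1bl2, with a mean of 0.208 FPKM, did not), and all 5 were lower in CD44hi than in CD44lo when both genotypes were fitted together (limma, log2 of FPKM + 1, adjusted p under 0.05), against 10.8% of the 9691 genes tested. Over all genes, 1610 (16.6%) were higher and 1045 lower in CD44hi, and median-ratio scaling gave 1251 higher and 1382 lower. The log2 difference, CD44hi minus CD44lo, was -3.31 ± 0.11 (SE) for Ifit1bl1, -2.90 ± 0.091 for Ifit3b, -2.80 ± 0.091 for Ifit3, -1.9996 ± 0.070 for Ifit1 and -1.81 ± 0.093 for Ifit2, with adjusted p-values (limma) between 7.7e-06 and 3.9e-05. Counted from the most negative log2 difference among the 9691 genes, Ifit1bl1 was number 1, Ifit3b number 2, Ifit3 number 3, Ifit1 number 10 and Ifit2 number 13. All 6 members were lower in every CD44hi library than in either CD44lo library, as were 15.1% of the genes tested. The CD44lo side is 1 library per genotype and was taken to vary like the CD44hi pairs.

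Each genotype on its own gave the fraction step for all 5 members. In Dusp2-/- cells the 5 members had log2 differences of -3.35 (Ifit1bl1), -2.94 (Ifit3), -2.90 (Ifit3b), -2.005 (Ifit1) and -1.67 (Ifit2), with the highest adjusted p at 0.00012 for Ifit2 (limma), and 16.5% of all genes were called lower in CD44hi there. In WT cells they were -3.27 (Ifit1bl1), -2.90 (Ifit3b), -2.66 (Ifit3), -1.99 (Ifit1) and -1.96 (Ifit2), with adjusted p-values up to 8.3e-05 (limma), and 10.7% of all genes were called lower. As ratios of FPKM, CD44hi over CD44lo, Ifit1bl1 stood at 0.0826 in Dusp2-/- cells and 0.0913 in WT cells, Ifit3 at 0.125 in Dusp2-/- and 0.154 in WT cells, and Ifit1 at 0.239 in Dusp2-/- and 0.243 in WT cells. Ifit3 and Ifit3b summed had a log2 difference of -2.99 in Dusp2-/- cells and of -2.73 in WT cells. Ifit1bl2, tested with no filter on low values, had a fraction step of -0.30 with both genotypes fitted together (adjusted p 0.0148, limma). Taken apart, its steps of -0.32 in WT (adjusted p 0.0748) and -0.27 in Dusp2-/- cells (adjusted p 0.0787, both limma) did not pass. These steps were held down by the pseudocount of 1. As a ratio of FPKM, CD44hi over CD44lo, Ifit1bl2 stood at 0.187 in Dusp2-/- cells and 0.394 in WT cells.

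Within the family the measured fraction steps differed in size between members. Taken as a log2 ratio to Ifit1 in the same library, which removes library scaling, Ifit1bl1 was at -1.83 ± 0.15 in CD44hi (SD, n = 4) and -0.35 ± 0.076 in CD44lo (SD, n = 2). Ifit3b was at -2.65 ± 0.13 in CD44hi and -1.44 ± 0.11 in CD44lo, and Ifit3 at 0.35 ± 0.14 in CD44hi and 1.15 ± 0.025 in CD44lo. These SDs pool both genotypes and so include any genotype difference. In CD44hi the Ifit3 ratio was 0.22 and 0.23 in Dusp2-/- against 0.43 and 0.51 in WT libraries. The Ifit1bl1 and Ifit3b ratios overlapped between genotypes there. The ratios of Ifit1bl1, Ifit3b and Ifit3 did not overlap between fractions, a trait that was not counted over other genes. Each had an exact two-sided permutation p of 0.133 (0.178 after Benjamini-Hochberg adjustment over 4 ratios). The test doubled the smaller tail and took no account of genotype. For 4 against 2 libraries 0.133 is the smallest p it can give, so it cannot reach 0.05. The ratio of Ifit2 to Ifit1 was -0.77 ± 0.12 in CD44hi and -0.92 ± 0.14 in CD44lo, and the fractions overlapped (exact permutation p 0.267). As shares of the family's summed FPKM, Ifit1 made up 29.1% to 31.2% in the CD44hi libraries and 20.2% to 20.6% in the CD44lo libraries. Ifit1bl1 made up 7.38% to 9.31% in CD44hi and 15.6% to 16.5% in CD44lo, and Ifit3 made up 36.0% to 41.4% in CD44hi and 45.0% to 45.4% in CD44lo.

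**Figure D2:**
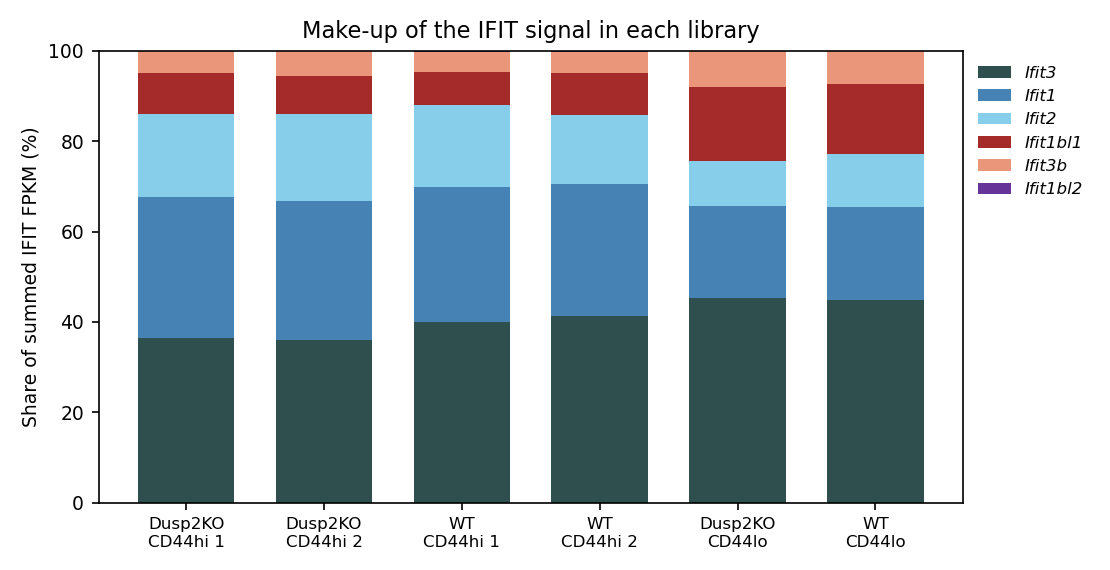
Share of the family's summed FPKM (percent) held by each member in each of the 6 libraries, as stacked bars that add up to the whole. The bars of the 4 CD44hi libraries held 29.1% to 31.2% Ifit1, and those of the CD44lo libraries 20.2% to 20.6%.

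The genotype step, Dusp2-/- against WT, was smaller for the 5 members tested. In CD44hi, 2 of the 5 members tested were lower in Dusp2-/- cells (limma, adjusted p under 0.05), against 13.8% of the 9691 genes. Ifit3 averaged 19.9 ± 0.21 FPKM in Dusp2-/- CD44hi and 30.1 ± 2.3 FPKM in WT CD44hi (SD, n = 2 each), a log2 difference of -0.57 ± 0.072 (SE, adjusted p 0.0041, limma). Ifit1 averaged 17.03 ± 0.25 FPKM in Dusp2-/- CD44hi and 21.8 ± 0.82 FPKM in WT CD44hi (SD, n = 2 each), a log2 difference of -0.34 ± 0.062 (SE, adjusted p 0.013, limma). The other 3 did not pass, with log2 differences of -0.30 ± 0.12 for Ifit1bl1 (adjusted p 0.118), -0.23 ± 0.073 for Ifit2 (adjusted p 0.059) and -0.16 ± 0.091 for Ifit3b (adjusted p 0.225, all limma, SE). Ifit1bl2 stood at a ratio of 0.250, Dusp2-/- over WT, and with no filter its log2 difference, held down by the pseudocount, was -0.19 (adjusted p 0.134, limma). The Dusp2-/- libraries lay below the WT libraries without overlap for all 6 members, as did 36.2% of the genes tested. The Ifit1 call was lost without Dusp2-/- CD44hi replicate 1 (adjusted p 0.059, limma) and without replicate 2 (adjusted p 0.091, limma). Ifit3 was called without any 1 library, and both calls were lost when genes under 1 FPKM were kept (adjusted p 0.071 each, limma), where only 2 genes of the whole table were called. Over all genes, 1248 (12.9%) were higher and 1338 lower in Dusp2-/- CD44hi cells, and rescaling each library to the same total gave 1292 higher and 914 lower.

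In the CD44lo libraries, 1 per genotype and compared here by their values alone, all 6 members were lower in Dusp2-/- cells, as were 51.6% of the genes tested. The ratio of Dusp2-/- to WT was 0.694 for Ifit2 (95% counting interval 0.666 to 0.721), 0.796 for Ifit1 (0.769 to 0.823), 0.816 for Ifit3 (0.792 to 0.838), 0.857 for Ifit1bl1 (0.822 to 0.893), 0.885 for Ifit3b (0.829 to 0.943) and 0.527 for Ifit1bl2 (0.310 to 0.857). These exact intervals cover counting error alone. In CD44hi the same ratio was 0.839 for Ifit2 and 0.661 for Ifit3, so the member with the lowest ratio among the 5 tested was Ifit3 in CD44hi and Ifit2 in CD44lo.

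With fraction as a covariate over all 6 libraries, Ifit3 (-0.48, adjusted p 0.018) and Ifit1 (-0.33, adjusted p 0.024) were again the 2 members called lower in Dusp2-/- cells by limma, against 5.17% of the genes tested. Both calls were lost without any 1 of the 4 CD44hi libraries. Whether the genotype step differed between fractions was tested by the interaction, the step in CD44hi minus the step in CD44lo. Of the 5 members, 0 were called by limma (4.22% of all genes were), 0 had an unadjusted p under 0.05, and limma voom on the recovered reads also called 0. The estimates were 0.28 ± 0.13 (SE) for Ifit2 and -0.28 ± 0.12 for Ifit3, both with an adjusted p of 0.19 (limma), and between -0.08 and 0.01 for the other 3. Without WT CD44hi replicate 1, which leaves 1 library in that group, the estimates were 0.35 for Ifit2 and -0.35 for Ifit3.

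The steps were then compared directly. In the additive model, fraction step minus genotype step was negative for all 5 members (limma, adjusted p under 0.05), against 3.85% of the genes tested, so for each the fraction step was the more negative. The difference on the log2 scale was -3.04 ± 0.16 (SE) for Ifit1bl1, -2.73 for Ifit3b, -2.32 ± 0.13 for Ifit3, -1.67 ± 0.096 for Ifit1 and -1.49 ± 0.13 for Ifit2, with adjusted p-values up to 0.00095 (limma). All 5 were also called for the sum of the steps, Dusp2-/- CD44hi against WT CD44lo (14.8% of all genes were called lower). For Ifit1bl2, tested with no filter, fraction step minus genotype step was -0.088 and did not pass (adjusted p 0.471, limma). Its genotype ratio in CD44hi, 0.250, was lower than its fraction ratio in WT cells, 0.394. The comparisons share the CD44hi libraries and are given side by side.

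**Figure D3:**
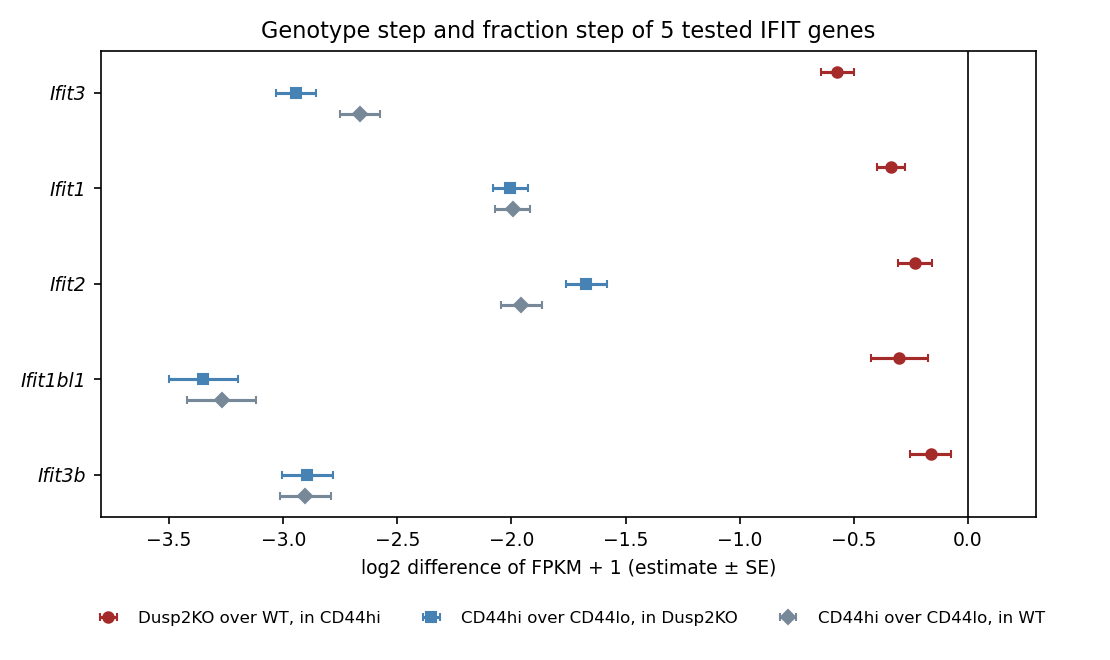
Log2 difference of FPKM + 1 (estimate ± SE) for the 5 tested IFIT genes, for the genotype step in CD44hi and for the fraction step in Dusp2-/- and in WT cells. Genotype steps lay between -0.57 and -0.16, and fraction steps between -3.35 and -1.67.

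The wider interferon pathway was read from lists of its parts, whose counts stand beside these shares of the 9691 genes tested. With both genotypes fitted together, 10.8% were lower and 16.6% higher in CD44hi than in CD44lo. For genotype in CD44hi, 13.8% were lower and 12.9% higher in Dusp2-/- cells. For fraction step minus genotype step, 3.85% were called negative. Among interferon genes, 4 of 10 listed were in the table and Ifng alone passed the filter. Ifng, which signals through its own receptor, was at 571 and 601 FPKM in Dusp2-/- CD44hi, 217 and 186 FPKM in WT CD44hi, and at 77.7 FPKM in Dusp2-/- CD44lo and 11.9 FPKM in WT CD44lo. Its order of groups was the reverse of that of the IFIT genes.

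Of 10 receptor and signalling genes, 6 were lower and 0 higher in CD44hi than in CD44lo with both genotypes fitted together. They included Stat2 (log2 difference -0.90) and Irf9 (-0.70), whose products bind the ISRE as part of a complex, and Ifngr1 (-1.24), a chain of the interferon gamma receptor. The receptor chain genes Ifnar1 (0.19, adjusted p 0.119) and Ifnar2 (0.12, adjusted p 0.439) did not pass (limma). For genotype in CD44hi, 5 of the 10 were lower in Dusp2-/- cells and 1 higher. Irf9 was at 13.8 and 14.3 FPKM in Dusp2-/- CD44hi against 20.9 and 21.2 FPKM in WT CD44hi (-0.55). Stat2 (-0.52) and Ifnar1 (-0.40) were also lower.

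Among 15 genes of RNA sensing and IRF factors, 8 were lower and 3 higher in CD44hi than in CD44lo. Irf7, the factor that amplifies type I interferon, was at 25.8 and 24.5 FPKM in Dusp2-/- CD44hi, 38.3 and 43.3 FPKM in WT CD44hi, and at 95.7 FPKM in Dusp2-/- CD44lo and 117 FPKM in WT CD44lo. Its groups stood in the IFIT order, with a fraction step of -1.69 and a genotype step in CD44hi of -0.67. Zbp1 (-1.39), Ddx58 (-1.12), which encodes the RNA sensor RIG-I, and Irf1 (-1.04) were also lower in CD44hi. For genotype in CD44hi, 7 of the 15 were lower and 3 higher in Dusp2-/- cells, with Irf1 at -0.84 and Zbp1 at -0.59, while Irf5 was higher at 0.91.

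Of 8 genes listed for feedback inhibitors and, with them, the ISG15 system, 6 were lower and 0 higher in CD44hi than in CD44lo. Uba7, the activating enzyme for ISG15, had a log2 difference of -1.41, Isg15 of -1.33, Socs3 of -0.96 and Usp18, which removes ISG15 and blocks the receptor, of -0.61. Isg15 was at 140 and 144 FPKM in Dusp2-/- CD44hi, 154 and 178 FPKM in WT CD44hi, and at 383 FPKM in Dusp2-/- CD44lo and 388 FPKM in WT CD44lo. For genotype in CD44hi, 3 of the 8 were lower in Dusp2-/- cells, among them Usp18 (-0.30, adjusted p 0.015), while Isg15 did not pass (-0.22, adjusted p 0.108, limma).

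Of 33 other interferon-induced effectors tested, 27 were lower and 2 higher in CD44hi than in CD44lo, with a median log2 difference of -0.81, against -2.80 for the 5 tested IFIT genes and 0.05 for all genes. The antiviral synthetase Oas2 (-2.15) and its relative Oasl2 (-2.09) had more negative fraction steps than Ifit1 (-1.9996) and Ifit2 (-1.81). Their steps were less negative than those of Ifit3, Ifit3b and Ifit1bl1. Among the effectors with the smallest p, Slfn5 (-1.52) and Oas1a (-1.34) came after Oas2 and Oasl2. For genotype in CD44hi, 16 of the 33 were lower and 0 higher in Dusp2-/- cells, with a median of -0.23, against -0.30 for the IFIT genes and -0.02 for all genes. Oasl1 (-0.88), Rtp4 (-0.70), Slfn5 (-0.60) and Xaf1 (-0.53) had the smallest p-values, and Oasl1, Rtp4 and Slfn5 had larger steps than the -0.57 of Ifit3. By the test of the difference between steps, the fraction step was the more negative for 19 of the 33 effectors and for 5 of 5 IFIT genes.

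The last list held 10 genes whose products methylate the cap or start translation, the process that IFIT proteins act on. With both genotypes fitted together, 0 of them were lower and 1 (Eif4g1, 0.42) higher in CD44hi than in CD44lo. That fit takes 1 step for both genotypes. Taken apart, the fraction step of Eif4g1 was 0.14 in WT and 0.70 in Dusp2-/- cells. That of Eif3a was -0.35 in WT and 0.69 in Dusp2-/- cells. For genotype in CD44hi, 4 of the 10 were higher and 1 lower in Dusp2-/- cells, against 12.9% higher and 13.8% lower over all genes. Eif3a (0.62), a subunit of the initiation factor that IFIT proteins contact, and Cmtr2 (0.48), a cap methyltransferase, were among the higher genes.

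**Figure D4:**
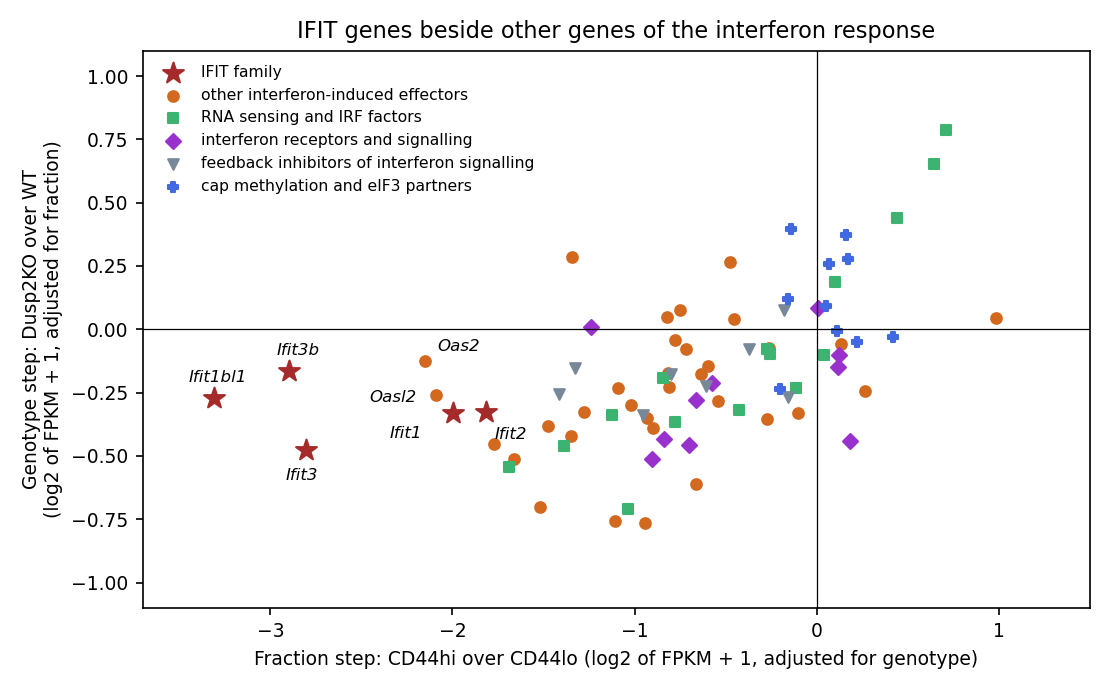
Fraction step (CD44hi over CD44lo, x axis) against genotype step (Dusp2-/-, written Dusp2KO, over WT, y axis) as log2 differences of FPKM + 1. Values are from the additive model, for the 5 tested IFIT genes and the tested genes of the other pathway lists except that of interferon genes. Ifng, the only gene tested from that list, is not plotted (fraction step 3.43, genotype step 1.89). Ifit1bl1, Ifit3b and Ifit3 lay farthest left, at -3.31, -2.90 and -2.80, with genotype steps of -0.27, -0.17 and -0.48.

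The genes with the pattern most like the family mean were found by the root mean square difference of centred log2 (FPKM + 1) values over the 6 libraries, among 6416 genes that averaged 5 FPKM or more, IFIT genes left out. The nearest were Trim30c (0.168), S1pr1 (0.191), Oasl2 (0.228), Oas2 (0.230) and Gbp11 (0.298). S1pr1, the receptor that T cells use to leave lymph nodes, was at 2.48 and 2.63 FPKM in Dusp2-/- CD44hi, 4.02 and 3.55 FPKM in WT CD44hi, and at 19.7 FPKM in Dusp2-/- CD44lo and 18.7 FPKM in WT CD44lo. Trim30c was at 1.67 and 1.42 FPKM in Dusp2-/- CD44hi, 1.62 and 1.60 FPKM in WT CD44hi, and at 15.8 FPKM in Dusp2-/- CD44lo and 16.6 FPKM in WT CD44lo. Trim30c showed the fraction gap of the family with overlapping genotypes in CD44hi, and S1pr1 had the Dusp2-/- libraries below the WT libraries in CD44hi and above in CD44lo. The likeness is a description over 6 libraries in which the fraction gap weighs most.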

How the data were processed

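Bulk RNA-seq was measured in 6 libraries, and the deposited table holds 1 column per library in FPKM, computed by the authors. The submitters' processing notes name HISAT2 2.0.5 and 2 builds, mm39 and hg38, with no word on which step used which. The counter, the annotation and the strand setting were not found in the labels. RNA was extracted with Trizol for Illumina libraries, per the labels' protocols. The labels' description also names 10X Genomics, although the values are per library. All columns matched a title.

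The IFIT genes, the 6 pathway lists and the 7 marker lists were chosen with earlier results of these data known. Values were tested as log2(FPKM + 1) with limma 3.58.1 in R 4.3.3 (two-sided, variance trend, Benjamini-Hochberg over the 9691 genes averaging 1 FPKM or more, threshold 0.05), with 1 coefficient for each of 4 groups, or with genotype plus fraction. A fold change on this scale understates that of low genes. Reads were recovered from the FPKM steps: 100.0% of 16220 rows came out whole within 1e-06 reads, against 6.05% of 2000 perturbed rows, and where only 1 library was above 0 (1902 rows) its value was set to 1 read. The script was tested on simulated data. All IFIT genes were named, along with Dusp2, Cd44, Ifng, Irf1, Irf7, Irf9, Stat2, Usp18 and Isg15 and up to 4 genes per list and comparison by smallest p. Up to 5 genes were named by likeness. A further gene of the naming rule is not reported here. Members singled out for an interaction, ratio or lost call were described after their values were seen. Promoters and names are from RefSeq (GRCm38.p6) and transcripts from GENCODE vM21, which are not the build of the files.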

Additional observations from a re-analysis of the deposited data

How the results depend on the processing

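The 5 members that passed the filter were followed under 13 alternatives in processing and with each of the 6 libraries left out. Where Ifit3 and Ifit3b were summed, they made 4 features. All stayed lower in CD44hi than in CD44lo in each fraction comparison that could be fitted, with adjusted p-values up to 0.0258 (limma). The fraction step also stayed more negative than the genotype step for all of them, with adjusted p-values up to 0.0171 (limma). Ifit1bl2, tested only with no filter, passed for fraction with both genotypes fitted together (adjusted p 0.0148, limma). It did not pass for fraction in WT (adjusted p 0.0748) or Dusp2-/- cells (0.0787), or for the difference between steps (0.471, all limma). Leaving out a CD44lo library removes a group, so the comparisons that need it could not be fitted. The genotype step is limited by pairs of libraries. In CD44hi 2 members were called, 0 with no filter on low values, 4 with the replicate number as a block, and between 1 and 3 when 1 library was left out. With fraction as a covariate, 2 members were called, 1 with no filter, 1 with the replicate block, 3 by voom, 3 with the gene length trend removed, and between 0 and 2 when 1 library was left out. The titles' numbers were not shown to pair the libraries (r = 0.02 between same-numbered deviations over genes, 2 pairs), so these fits are given for completeness. For the interaction, where 0 members were called, leaving out 1 library gave between 0 and 2. The signs of small interactions turned without passing the threshold. That of Ifit1bl1 (-0.08) became 0.0372 after rescaling to the same total and 0.0856 with the gene length trend removed, and ranged from -0.270 to 0.109 when 1 library was left out. That of Ifit3b (0.01) became -0.0326 and -0.0116 with pseudocounts of 0.1 and 0.5 and -0.0460 by voom, and ranged from -0.0748 to 0.0911. That of Ifit1 (-0.01) became 0.0338 with quantile normalization, 0.132 after rescaling and 0.120 with the length trend removed, and ranged from -0.0470 to 0.0264. The causes were not tested. Counts over all genes varied more: genes called for genotype in CD44hi numbered 2586, and between 2 (no filter) and 4092 (without WT CD44hi replicate 1) under the alternatives. For the interaction they numbered 409, with a range of 39 to 3046, and for genotype with fraction as a covariate 1008, with a range of 215 to 2590. For fraction they numbered 3888 in Dusp2-/- (2085 to 5515), 2527 in WT (1170 to 3825) and 2655 in both (1570 to 3886). For the difference between steps they numbered 896 (252 to 2169) and for their sum 3144 (1382 to 4433). Rescaling to the same total moved the median of all genes to 0.18 from 0.05 for fraction in Dusp2-/- cells and to 0.13 from -0.01 for the interaction. The 5 tested members had at least 267 reads in every library, and Ifit1bl2 rests on 9 to 85 reads per library.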
